A study of Homo sapiens with 8 samples.

Results

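The 8 genes described here encode proteins of apoptosis, pyroptosis and necroptosis that interferons are known to act on: TNFSF10, FAS, CASP8, CASP1, CASP4, ZBP1, MLKL and XAF1. They were picked by name, with earlier results of these data known, so counts over them are a description and not independent evidence. Their regions are the H3K27ac peaks whose transcription start site (TSS) the authors' table gives as a member, the peaks with a member as the next TSS upstream or downstream within 50 kb, and the peaks that overlap a member gene on GRCh38. These rules found 23 of the 31961 peaks, with 6 for TNFSF10, 5 for ZBP1, 4 for CASP8, 3 for MLKL, 2 for FAS and 1 each for CASP1, CASP4 and XAF1. All genes except CASP1 had a peak at a gene start, which gives 7 promoter peaks. The peak nearest to CASP1 lay 9.717 kb from its start and held the start of CARD16, which encodes a CARD-only inhibitor of caspase-1.

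H3K27ac, acetylation of lysine 27 of histone H3, marks active promoters and enhancers and was measured by ChIP-seq in clonal lines of CFPAC1, a human pancreatic ductal adenocarcinoma cell line. All clones carry a lentiCRISPRv2 plasmid (lentiCRIPSv2 in the labels), which expresses wild-type Cas9. Clones 1 and 4 are the controls, with no guide named, and clones 11 and 13 carry a guide against IRF1, an interferon-induced transcription factor. The labels do not state whether IRF1 protein is lost in clones 11 and 13, so these are called IRF1-guide clones. Each clone was taken untreated and after 2 h with hIFNb (human interferon beta), which gives 4 groups of 2 libraries. The 2 libraries of a group are different clones of 1 cell line. The p-values thus measure the spread between clones, with part of that spread borrowed from all peaks. Unless stated otherwise, the fits treat the 2 libraries of a clone as independent. The fit with each clone set against itself and the one over clone means do not. A lower score cannot be told apart as fewer cells carrying the mark or less mark per cell.

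Interferon beta binds a cell-surface receptor and activates a transcription factor complex that binds the interferon-stimulated response element, and IRF1 binds a related sequence. TNFSF10 encodes TRAIL, a ligand of death receptors, and FAS encodes a death receptor. Caspase-8 is the initiator caspase that both pathways recruit. Caspase-1 and caspase-4 drive inflammatory cell death, caspase-1 within inflammasomes and caspase-4 in response to intracellular lipopolysaccharide. ZBP1 senses Z-form nucleic acids and acts through RIPK3, and MLKL then breaches the plasma membrane in necroptosis. XAF1 antagonises the apoptosis inhibitor XIAP.

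Promoter sequences are shown for 3 genes whose promoter peak rose with hIFNb and whose RefSeq window on GRCh38.p14, from 250 bases before to 50 bases after the start, held a motif that was searched. The windows of 6 of the 8 genes were in the RefSeq table, with CASP1 and ZBP1 not in it. Each line runs 5′ to 3′ on the gene's strand from 250 bases before the start to 30 bases after it, and capitals mark the motif matches. The TNFSF10 sequence is chr3:172523401-172523680 on the minus strand, the CASP8 sequence is chr2:201233213-201233492 on the plus strand and the XAF1 sequence is chr17:6755796-6756075 on the plus strand.
TNFSF10: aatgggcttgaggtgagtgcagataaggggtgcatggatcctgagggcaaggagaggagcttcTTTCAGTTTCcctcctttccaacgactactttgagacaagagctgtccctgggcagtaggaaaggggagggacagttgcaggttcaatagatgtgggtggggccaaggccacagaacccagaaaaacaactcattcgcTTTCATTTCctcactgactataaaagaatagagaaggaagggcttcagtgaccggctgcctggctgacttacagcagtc
CASP8: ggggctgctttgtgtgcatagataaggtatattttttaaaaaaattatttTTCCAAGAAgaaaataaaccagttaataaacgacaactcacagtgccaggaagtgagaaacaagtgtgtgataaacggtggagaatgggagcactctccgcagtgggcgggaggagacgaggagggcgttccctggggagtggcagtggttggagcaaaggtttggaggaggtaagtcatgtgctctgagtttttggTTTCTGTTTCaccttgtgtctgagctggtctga
XAF1: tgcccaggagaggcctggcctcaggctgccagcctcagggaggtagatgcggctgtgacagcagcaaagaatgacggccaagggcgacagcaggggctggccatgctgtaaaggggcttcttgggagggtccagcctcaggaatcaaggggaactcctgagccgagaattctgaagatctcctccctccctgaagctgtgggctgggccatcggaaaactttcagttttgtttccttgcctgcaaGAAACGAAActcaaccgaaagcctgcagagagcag
The core of the interferon-stimulated response element, a pair of GAAA with any 2 bases between them, was searched on both strands. It matched, as TTTCAGTTTC, 187 bases before the TNFSF10 start and, as TTTCTGTTTC, across the CASP8 start from 3 bases before it, and 3.57% of all 35116 RefSeq windows of this length hold it. TTCNNNGAA, the form of the gamma-activated site, matched once, 200 bases before the CASP8 start, and is held by 7.66% of windows. GAAANGAAA, a form with 1 base between the repeats, was added after the sequences had been read. It matched, as TTTCATTTC, 49 bases before the TNFSF10 start and, as GAAACGAAA, across the XAF1 start at chr17:6756046 from 5 bases before it. The window of the other XAF1 start, chr17:6755447, in the same peak, held no match to any motif searched. Neither did the windows of the other CASP8 starts. It also matched, as GAAAAGAAA, 222 bases before the start of CASP4, whose promoter peak did not pass the hIFNb test, and 3.12% of windows hold it. These matches describe letters in the windows and are not measured binding.

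Values are the authors' normalised counts per peak, rounded to whole numbers and called scores here. Library totals were between 3277561 and 3460390. Peaks lay over all 6 epithelial marker genes, with summed scores between 5928 and 8247, over none of 4 fibroblast genes, over 3 of 4 leukocyte genes (summed scores 337 to 734) and over 3 of 3 endothelial genes (summed scores 558 to 896). Their part in the results was not tested. Changes are differences of log2(score + 1) with their standard error (SE), which understate the change of low scores. Tests are limma's moderated test with Benjamini-Hochberg adjustment over all 31961 peaks, and a peak is said to rise or fall where the adjusted p is under 0.05.

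With hIFNb, averaged over both genotypes, 10 of the 23 peaks rose and none fell, while 6.55% of all peaks rose and 2.58% fell. The rises were at all 6 TNFSF10 peaks, the ZBP1 and XAF1 promoters, and the promoter and an upstream peak of CASP8. With each clone set against itself (clone as a block in the fit), the FAS and MLKL promoters were added, so that 12 rose and none fell, against 16.6% and 15.9% of all peaks. That fit had 2 residual degrees of freedom beside 25.4 borrowed from all peaks, while the fit without the block had 4 beside 6.45. Small p-values with the block thus rest mostly on a spread shared by all peaks and not on the few clones. The median change over the 23 peaks was 0.57, against 0 over all peaks. In 9 of the 23, all 4 hIFNb libraries lay above all 4 untreated libraries, which held for 7.22% of all peaks. In 13 of the 23, hIFNb was above untreated within each of the 4 clones, against 19.9% of all peaks.

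The TNFSF10 promoter peak (chr3:172519692-172530506) holds the gene start and has 34.6% of its length inside the gene. It scored 99 and 77 in untreated control clones 1 and 4, and 284 and 247 with hIFNb. In IRF1-guide clones 11 and 13 it scored 72 and 125 untreated, and 206 and 242 with hIFNb. The 4 hIFNb libraries were all above the 4 untreated ones. The peak rose by 1.41 ± 0.19 on the log2 scale over all clones (adjusted p = 0.00165). In control clones it rose by 1.59 ± 0.27 (adjusted p = 0.00991), a call lost without control clone 4 untreated (0.0761), control clone 1 hIFNb (0.1) or control clone 4 hIFNb (0.0555). In IRF1-guide clones the change was 1.23 ± 0.27 and missed the threshold (adjusted p = 0.0664), and with clone as a block it passed (1.18e-06).

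The highest-scoring TNFSF10 peak was 31489 bp long (chr3:172535295-172566783), 11.865 kb before the gene start, over the span of the long noncoding gene LINC02068. Control clones scored 251 and 212 untreated and 639 and 591 with hIFNb. IRF1-guide clones scored 255 and 222 untreated and 395 and 484 with hIFNb. Untreated levels overlapped between the genotypes, and both hIFNb control libraries were above both hIFNb IRF1-guide libraries. The rise was 1.14 ± 0.13 over all clones (adjusted p = 0.000542), 1.41 ± 0.18 in control clones (0.00266) and 0.88 ± 0.18 in clones 11 and 13 (0.0484), the last call being lost when any 1 library was left out (0.0675 to 0.26). The difference between the genotypes with hIFNb was -0.49 ± 0.18 (adjusted p = 0.207), and the difference between the 2 responses was -0.53 ± 0.25 (unadjusted p = 0.0608; with clone as a block, adjusted p = 0.136).

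The peak 29.734 kb from the start and beyond the 3′ end of TNFSF10 (chr3:172486991-172493696) scored 22 and 30 in untreated control clones and 26 and 34 in untreated IRF1-guide clones. With hIFNb it scored 101 and 119 in control clones and 68 and 122 in IRF1-guide clones, all above the untreated libraries. The rise over all clones was 1.82 ± 0.23 (adjusted p = 0.00113) and that in control clones 2.05 ± 0.33 (0.00721), and the latter call was lost without control clone 1 untreated (0.0616), control clone 1 hIFNb (0.063) or control clone 4 hIFNb (0.0646). In IRF1-guide clones it rose by 1.58 ± 0.33 (0.0495), which no set of 7 libraries kept (0.0656 to 0.272).

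The other 3 TNFSF10 peaks rose over all clones with calls that rested on single libraries. The peak 43.385 kb from the start (chr3:172475907-172480045) scored 24 and 35 in untreated and 63 and 63 in hIFNb control clones, and 38 and 60 in untreated and 67 and 85 in hIFNb IRF1-guide clones. Its rise of 0.87 ± 0.22 (adjusted p = 0.0345) was kept only without control clone 4 untreated or IRF1-guide clone 13 untreated, and was lost without each of the other 6 libraries (0.0666 to 0.115) and without limma's mean-variance trend (0.0591). The weak peak 26.328 kb from the start (chr3:172496223-172497102) went from 4 and 6 to 13 and 18 in control clones and from 1 and 4 to 12 and 18 in IRF1-guide clones. It rose by 1.89 ± 0.40 (0.0165), lost without control clone 1 untreated (0.0613), control clone 4 hIFNb (0.0585) or IRF1-guide clone 13 hIFNb (0.0574). In both peaks the hIFNb libraries were all above the untreated ones.

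One TNFSF10 peak lay wholly inside the gene (chr3:172508677-172517630), 5.8 kb from the start, and its order of the genotypes was unlike that of the promoter. Scores were 27 and 31 in untreated and 54 and 46 in hIFNb control clones, and 41 and 65 in untreated and 100 and 118 in hIFNb IRF1-guide clones. Both IRF1-guide libraries were above both control libraries in each treatment, as they also were at the peak 43.385 kb from the start. It rose by 0.91 ± 0.20 with hIFNb over all clones (adjusted p = 0.0211), a call lost without control clone 1 untreated (0.0733), IRF1-guide clone 11 untreated (0.0669), control clone 1 hIFNb (0.0757), IRF1-guide clone 11 hIFNb (0.0545) or IRF1-guide clone 13 hIFNb (0.0694). IRF1-guide less control clones gave a difference of 0.81 ± 0.29 untreated (0.305) and 1.11 ± 0.29 with hIFNb (0.0769). Summed over its 6 peaks, TNFSF10 scored 427 and 391 in untreated and 1154 and 1084 in hIFNb control clones, and 433 and 510 in untreated and 848 and 1069 in hIFNb IRF1-guide clones.

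**Figure D1:**
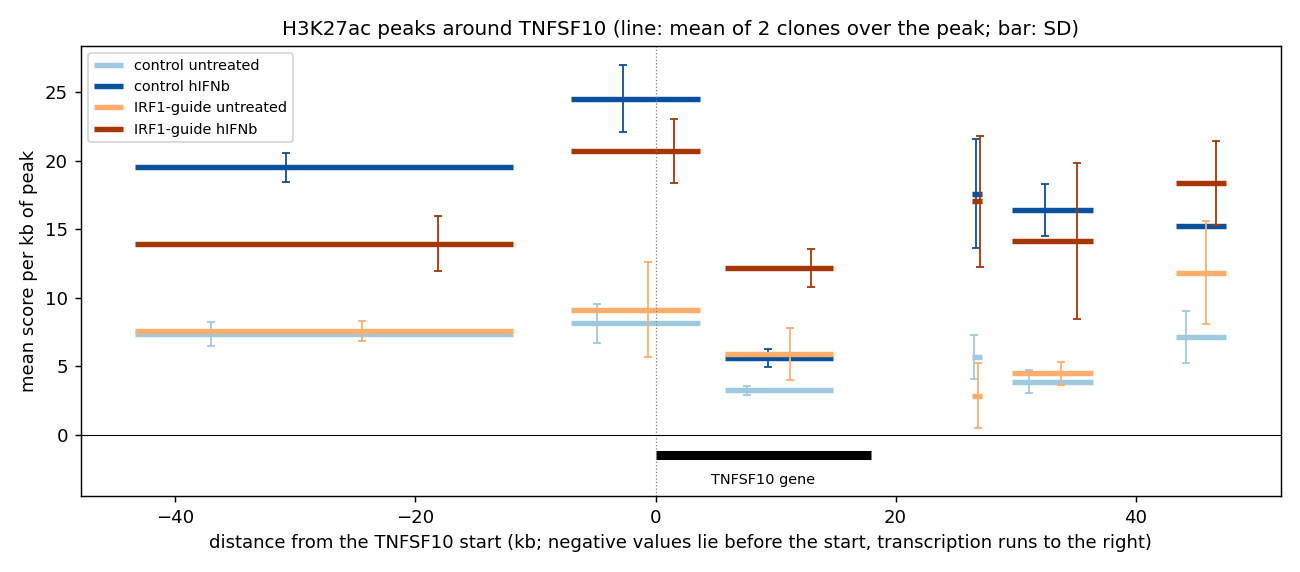
The 6 TNFSF10 peaks by distance from the gene start in kb (x axis, negative before the start) and mean score per kb of peak (y axis); each line spans a peak at the mean of the 2 clones of a group, thin bars are the SD, and the black bar is the gene. Both hIFNb means are above both untreated means except inside the gene, where hIFNb control clones lie beside untreated IRF1-guide clones; at the promoter the means go from 8.1 to 24.5 in control and from 9.1 to 20.7 in IRF1-guide clones.

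The FAS promoter peak (chr10:88988767-88993508) holds 3 RefSeq starts of FAS, and the authors' table links it to the antisense gene FAS-AS1. It scored 44 and 74 in untreated and 112 and 95 in hIFNb control clones, and 52 and 27 in untreated and 70 and 66 in hIFNb IRF1-guide clones. Each clone was higher with hIFNb, by 1.33 and 0.36 on the log2 scale in control clones 1 and 4 and by 0.42 and 1.26 in IRF1-guide clones 11 and 13. Untreated control clone 4 nevertheless overlapped the hIFNb IRF1-guide libraries. The change over all clones was 0.84 ± 0.25 and missed the threshold (adjusted p = 0.0587), but passed without IRF1-guide clone 11 untreated (0.0313) and with clone as a block (0.000299).

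CASP8 had its strongest relative change away from the promoter. The peak 12.125 kb before its start (chr2:201219050-201221318) lies inside CASP10, the neighbouring gene for a related initiator caspase. It scored 7 and 13 in untreated and 23 and 27 in hIFNb control clones, and 5 and 4 in untreated and 24 and 36 in hIFNb IRF1-guide clones. All hIFNb libraries were above all untreated ones, and the rise was 1.88 ± 0.30 over all clones (adjusted p = 0.0041). In IRF1-guide clones it rose by 2.47 ± 0.43 (0.0198), a call lost without any 1 of the 4 IRF1-guide libraries (0.0798 to 0.168 without clone 11 untreated, clone 13 untreated, clone 11 hIFNb or clone 13 hIFNb). In control clones the change was 1.29 ± 0.43 (0.123; with clone as a block, 0.0236).

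The CASP8 promoter peak (chr2:201227446-201237905) scored 138 and 162 in untreated and 224 and 243 in hIFNb control clones, and 131 and 158 in untreated and 191 and 221 in hIFNb IRF1-guide clones. The treatments did not overlap, and the 4 clones changed by 0.48 to 0.69. It rose by 0.57 ± 0.14 (adjusted p = 0.03), which was kept only without IRF1-guide clone 13 untreated and was lost without each of the other 7 libraries (0.054 to 0.106) and without the mean-variance trend (0.0806). The highest-scoring CASP8 peak lay inside the gene (chr2:201252307-201265067) over 2 alternative RefSeq starts and was lower with hIFNb in each of the 4 clones. It scored 429 and 451 in untreated and 383 and 391 in hIFNb control clones, and 400 and 424 in untreated and 363 and 411 in hIFNb IRF1-guide clones. That change of -0.14 ± 0.11 did not pass (adjusted p = 0.458).

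Of the inflammatory caspases, CASP4 did not pass the hIFNb test at its promoter peak. CASP1 had no peak at its start or within the gene, and its nearest peak, at the CARD16 start, did not pass. The CASP4 promoter peak (chr11:104965123-104971070) scored 184 and 171 in untreated and 207 and 225 in hIFNb control clones, and 123 and 117 in untreated and 144 and 107 in hIFNb IRF1-guide clones. All 4 control libraries were above all 4 IRF1-guide libraries. That separation held for 2 of the 23 peaks, the other being the FAS peak within ACTA2, and for 5.08% of all peaks; the opposite one held for 0 of the 23 and for 3.79% of all peaks. The change with hIFNb at CASP4 was 0.17 ± 0.15 (adjusted p = 0.509). At CASP4, IRF1-guide less control clones gave -0.56 ± 0.21 untreated (0.325), -0.79 ± 0.21 with hIFNb (0.0774) and -0.68 ± 0.20 over clone means (0.166).

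The peak nearest to CASP1 (chr11:105044861-105046775) scored 34 and 22 in untreated and 58 and 36 in hIFNb control clones, and 14 and 26 in untreated and 20 and 21 in hIFNb IRF1-guide clones. The hIFNb control libraries were above both hIFNb IRF1-guide libraries, while the untreated libraries overlapped. Its change with hIFNb was 0.41 ± 0.28 (adjusted p = 0.393), and the genotype difference with hIFNb was -1.12 ± 0.40 (0.189).

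ZBP1 had the largest genotype difference with hIFNb among the 23 peaks. Its promoter peak (chr20:57615346-57624731) scored 106 and 107 in untreated control clones, and 65 and 44 in untreated IRF1-guide clones. With hIFNb it scored 418 and 404 in control clones and 179 and 96 in IRF1-guide clones. IRF1-guide clones were below control clones in each treatment, and hIFNb IRF1-guide clone 13 stayed below untreated control clones. The rise with hIFNb was 1.61 ± 0.21 over all clones (adjusted p = 0.00127) and 1.94 ± 0.30 in control clones (0.00601; lost without control clone 1 hIFNb, 0.0703). In IRF1-guide clones the change was 1.28 ± 0.30 (0.0809; with clone as a block, 5.71e-07).

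At the ZBP1 promoter, the difference between IRF1-guide and control libraries with hIFNb was -1.64 ± 0.30 on the log2 scale, the IRF1-guide side being lower (adjusted p = 0.0209). This call was lost without control clone 1 hIFNb (0.152), control clone 4 hIFNb (0.12) or IRF1-guide clone 13 hIFNb (0.132), and without the mean-variance trend (0.062). The difference was -0.98 ± 0.30 untreated (0.244) and -1.31 ± 0.26 over clone means (0.0672). Of these differences only that over clone means counts each clone once. The others take their spread from libraries treated as independent. The responses themselves differed by -0.66 ± 0.42, which did not pass (adjusted p = 1.0; with clone as a block, 0.169).

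The longest ZBP1 peak (chr20:57663738-57719331) covers 55594 bp, starts 43.312 kb away and holds the start of PMEPA1. It scored 2298 and 1970 in untreated and 2385 and 2015 in hIFNb control clones, and 2074 and 854 in untreated and 2087 and 730 in hIFNb IRF1-guide clones. Clone 13 was the low one in both treatments, and the other 3 clones lay between 1970 and 2385. The hIFNb change was -0.03 ± 0.32 (adjusted p = 0.962), and the genotype difference with hIFNb was -0.83 ± 0.45 (0.405).

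The MLKL promoter peak (chr16:74697283-74704054) scored 128 and 105 in untreated and 161 and 203 in hIFNb control clones, and 119 and 125 in untreated and 157 and 166 in hIFNb IRF1-guide clones. The treatments did not overlap, but the change of 0.52 ± 0.15 missed the threshold (adjusted p = 0.053) and passed with a pseudocount of 5 (0.0492) and with clone as a block (0.000545). The genotypes differed there by 0.07 ± 0.21 untreated (0.924) and -0.16 ± 0.21 with hIFNb (0.755). A 22172 bp MLKL peak within FA2H (chr16:74727352-74749523), 26.49 kb before the start, scored 535 and 466 in untreated and 506 and 474 in hIFNb control clones, and 395 and 443 in untreated and 462 and 477 in hIFNb IRF1-guide clones. It overlapped between treatments and changed by 0.07 ± 0.11 (0.731).

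The XAF1 promoter peak (chr17:6751784-6758166) scored 106 and 101 in untreated and 227 and 211 in hIFNb control clones. IRF1-guide clones scored 63 and 30 untreated and 151 and 146 with hIFNb, so that they were below control clones in both treatments. The all-clone rise was 1.41 ± 0.21 (adjusted p = 0.00303) and the rise in IRF1-guide clones 1.75 ± 0.30 (0.0198), the latter lost without clone 13 untreated (0.0657), clone 11 hIFNb (0.172) or clone 13 hIFNb (0.125). In control clones the change was 1.07 ± 0.30 (0.0754; with clone as a block, 8.05e-05). Untreated IRF1-guide clones differed from control clones by -1.23 ± 0.30 (0.162), and hIFNb ones by -0.56 ± 0.30 (0.398). The responses differed by 0.67 ± 0.43, opposite in sign to ZBP1, and neither passed (XAF1 adjusted p = 1.0; with clone as a block, 0.271).

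**Figure D2:**
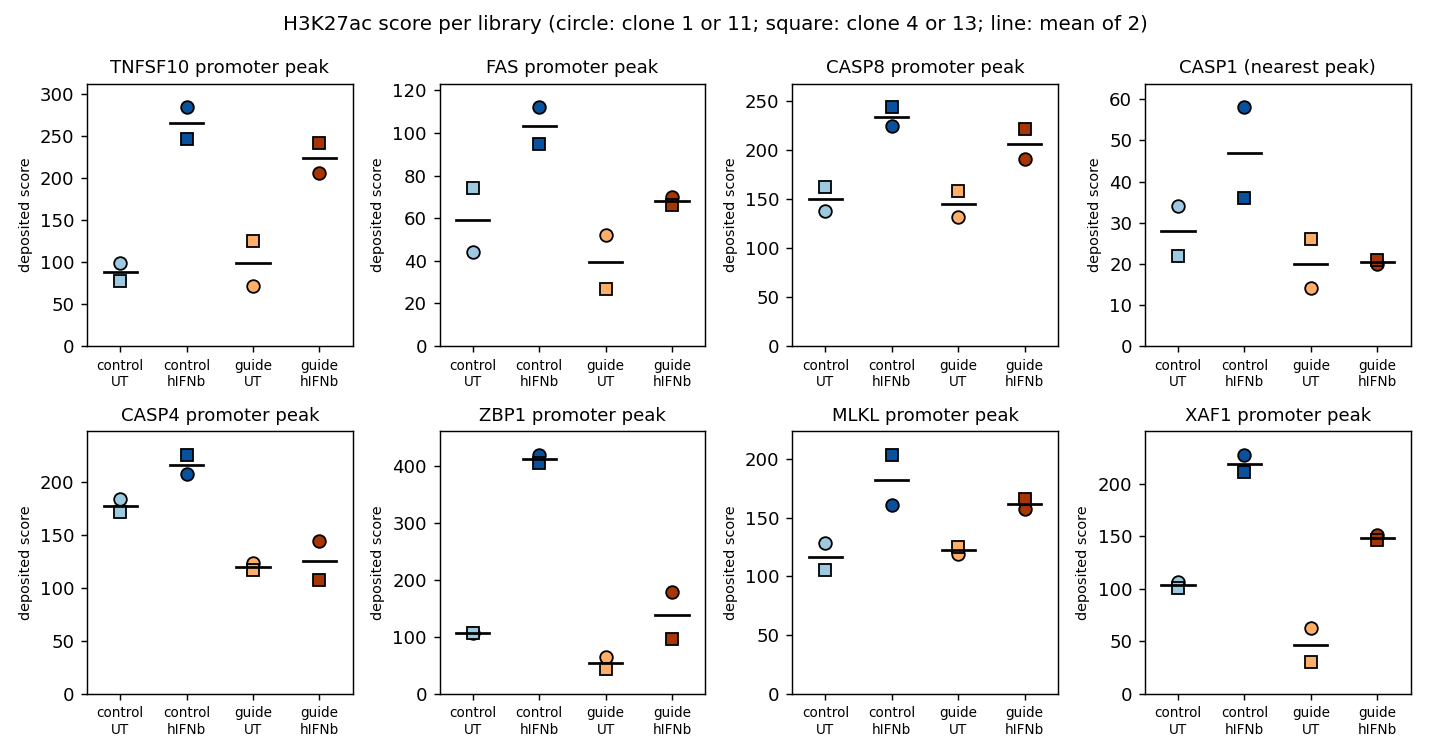
Scores (y axis, each panel from 0) of the 7 promoter peaks and the peak nearest to CASP1 in the 8 libraries, by group (x axis; UT, untreated). Circles are clones 1 and 11, squares are clones 4 and 13, and lines are means of 2. ZBP1 goes from 106 and 107 to 418 and 404 in control clones and from 65 and 44 to 179 and 96 in IRF1-guide clones, while CASP4 lies between 171 and 225 in control clones and between 107 and 144 in IRF1-guide clones.

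In the contrast within control clones, with the spread taken from all 8 libraries, 4 peaks rose and none fell. These were 3 of TNFSF10 and the ZBP1 promoter, against 4.07% of all peaks rising and 0.676% falling. In the same contrast within IRF1-guide clones, 4 rose and none fell: 2 of TNFSF10, the upstream CASP8 peak and the XAF1 promoter, against 1.2% and 0.025% of all peaks. None of these 4 was called when the 4 IRF1-guide libraries were fitted alone (adjusted p 0.13 to 0.242). With clone as a block, control clones had 12 rises and 1 fall, against 13.4% and 11.3% of all peaks. IRF1-guide clones had 11 rises and no fall on that test, against 7.44% and 6.64% of all peaks. The fall in control clones was at a peak beyond the 3′ end of MLKL (chr16:74665868-74668356), which holds the start of TMPOP2. It fell by 0.62 on the log2 scale (adjusted p = 0.0289), with scores of 64 and 77 untreated and 41 and 50 with hIFNb. IRF1-guide clones 11 and 13 scored 68 and 54 there untreated and 67 and 60 with hIFNb.

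Which peaks passed in 1 genotype does not show that the responses differed, and the test of that difference called 0 of the 23 peaks and 0.0% of all peaks. None of the 23 had an unadjusted p under 0.05. With clone as a block, 0 of the 23 were called, against 0.106% of all peaks called higher and 0.657% called lower in the IRF1-guide response. In that fit 5 of the 23 had an unadjusted p under 0.05. No share of all peaks is given at that threshold, so this count cannot be weighed.

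**Figure D3:**
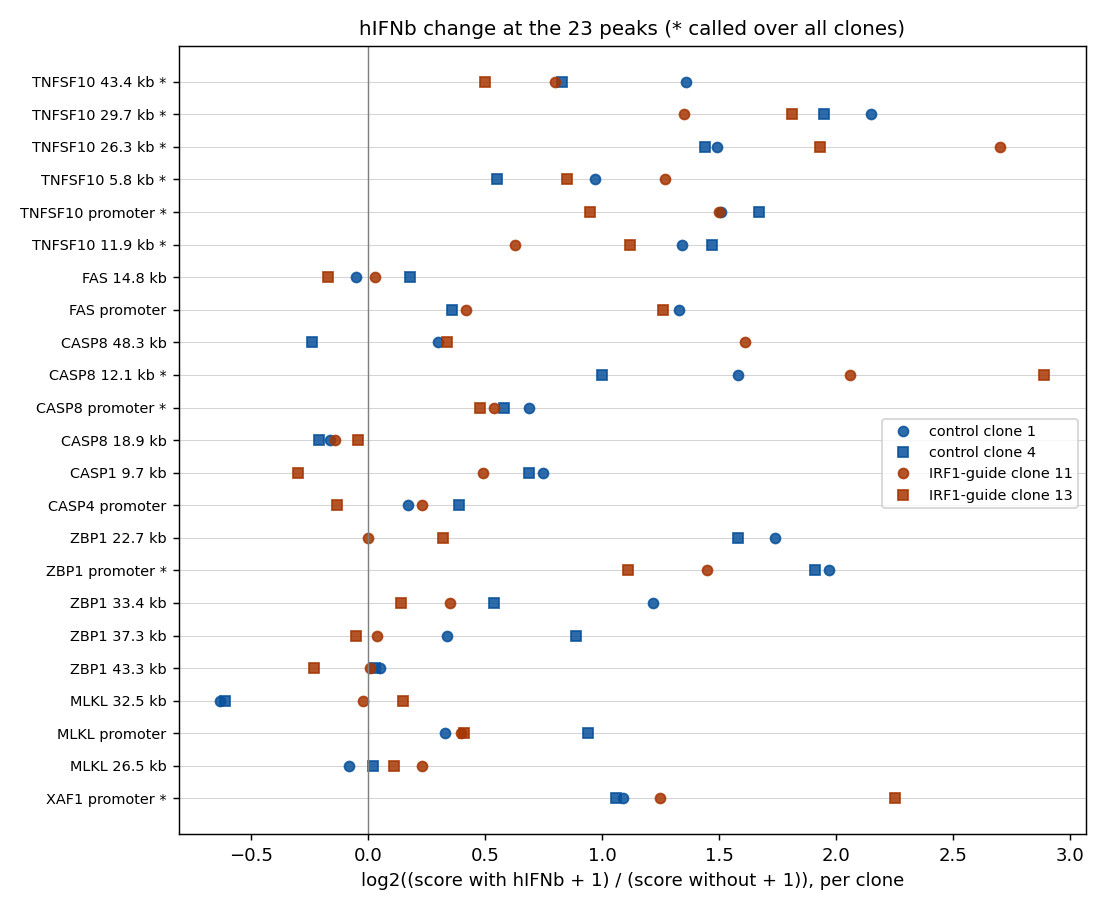
Change in log2(score + 1) with hIFNb (x axis) within each of the 4 clones (points) at the 23 peaks (rows, named by gene and distance from its start; asterisks mark rises over all clones). Points right of 0 are higher with hIFNb: at the ZBP1 promoter control clones changed by 1.97 and 1.91 and IRF1-guide clones by 1.45 and 1.11, and at the XAF1 promoter by 1.09 and 1.06 against 1.25 and 2.25.

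Between genotypes, 0 of the 23 peaks were called in untreated cells, as were 0.0% of all peaks. Among hIFNb libraries 1 was called, the ZBP1 promoter, which was lower in IRF1-guide than in control clones. Of all peaks 0.238% were called higher and 2.19% lower in IRF1-guide clones. Over clone means 0 were called, against 0.0594% higher and 0.457% lower. An unadjusted p under 0.05 was found at 6 of the 23 in untreated cells and at 5 over clone means. The share of all peaks at that threshold is not given, so these counts cannot be weighed. In hIFNb libraries both control clones were above both IRF1-guide clones at 11 of the 23 peaks, against 24.2% of all peaks, and the opposite order held at 4 of the 23, against 19.6%. With a block by the R1 or R2 ending of the column names, chosen after seeing the data, 1 was called in untreated cells, the XAF1 promoter (-1.23, adjusted p = 0.0475; 0.476% of all peaks higher and 0.785% lower). That block gave 3 calls with hIFNb, the TNFSF10 peak inside the gene (1.11, 0.0335), the CASP4 promoter (-0.79, 0.0298) and the ZBP1 promoter (-1.64, 0.00463), against 1.35% of all peaks higher and 4.6% lower. These comparisons use the same IRF1-guide and control libraries, so they are not separate evidence.

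**Figure D4:**
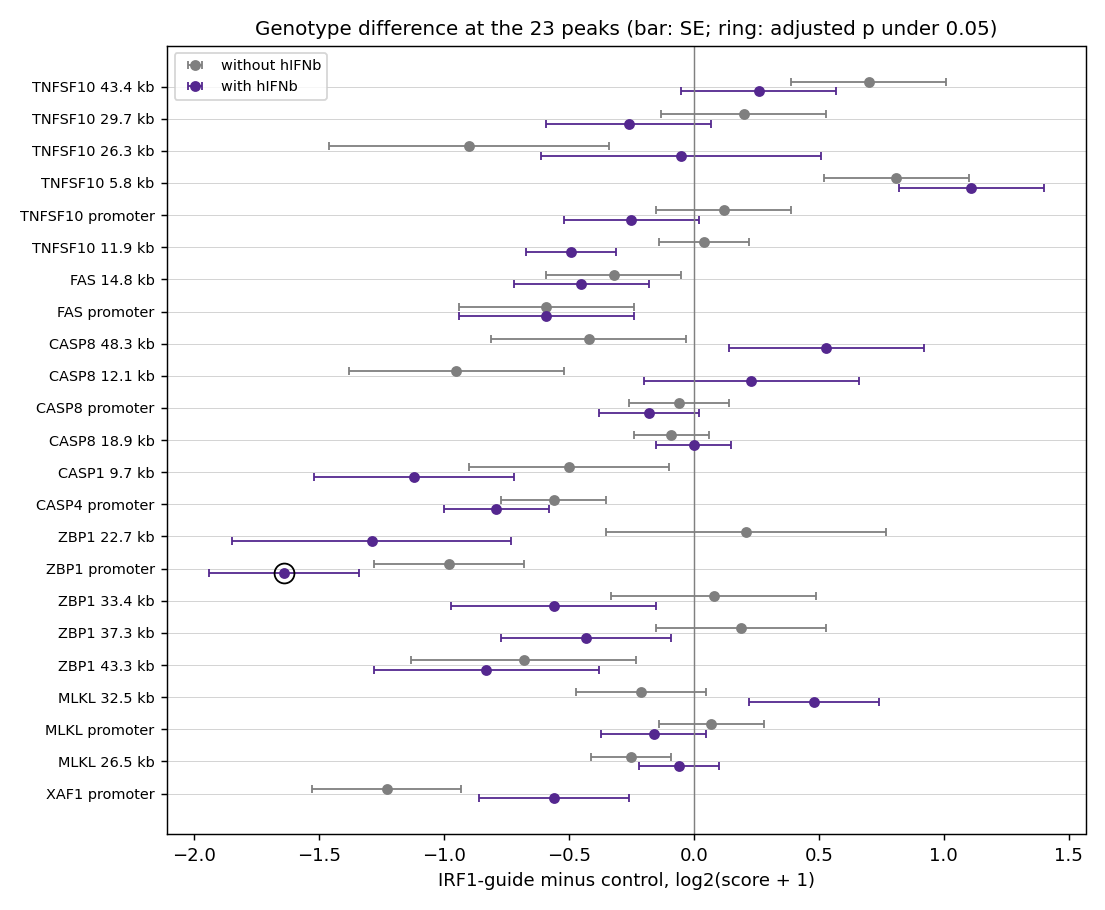
IRF1-guide minus control in log2(score + 1) (x axis; points, with the SE as a bar) for untreated (grey) and hIFNb (purple) libraries at the 23 peaks (rows, named by gene and distance from its start). The ring marks the 1 difference that passed, the ZBP1 promoter at -1.64 with hIFNb, and the TNFSF10 peak inside the gene lies farthest to the right at 1.11.

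Per kb of peak, the order of the promoter levels differed between groups. In untreated control clones the mean score per kb was highest at CASP4, 29.8 ± 1.55 (SD, n = 2), and lowest at TNFSF10, 8.1 ± 1.44. MLKL (17.2 ± 2.4), XAF1 (16.2 ± 0.55), CASP8 (14.3 ± 1.62), FAS (12.4 ± 4.47) and ZBP1 (11.3 ± 0.08) lay between, and each was closer to its neighbour among them than the sum of the SDs. In hIFNb control clones ZBP1 was first at 43.8 ± 1.05, followed by CASP4 at 36.3 ± 2.14 and XAF1 at 34.3 ± 1.77, whose gap was smaller than the sum of their SDs. MLKL, TNFSF10, CASP8 and FAS followed between 26.9 and 21.8.

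In untreated IRF1-guide clones CASP4 at 20.2 ± 0.71 and MLKL at 18.0 ± 0.63 were the highest and ZBP1 the lowest at 5.8 ± 1.58, next to XAF1 at 7.3 ± 3.66. With hIFNb, MLKL (23.8 ± 0.94), XAF1 (23.3 ± 0.55), CASP4 (21.1 ± 4.4), TNFSF10 (20.7 ± 2.35) and CASP8 (19.7 ± 2.03) formed a run in which each gap was smaller than the sum of the SDs. ZBP1 had 14.6 ± 6.25 there, beside FAS at 14.3 ± 0.6. The peak near CASP1 went from 10.4 ± 4.43 to 10.7 ± 0.37 in IRF1-guide clones and from 14.6 ± 4.43 to 24.5 ± 8.12 in control clones.

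Apart from CASP4, the promoter peaks followed 2 loose patterns across the 8 libraries, described by Pearson's r of log2(score + 1). The libraries share treatment and genotype, so r gives no test. TNFSF10 followed CASP8 (r = 0.92) and MLKL (0.90), XAF1 followed FAS (0.92) and ZBP1 (0.90), and the lowest r, 0.24, was between TNFSF10 and CASP4. Between these 2 sets r still lay between 0.54 (FAS with MLKL) and 0.75 (ZBP1 with CASP8). CASP4 was closest to ZBP1 (0.80). Among 9418 other peaks that hold a TSS and have a mean score of at least 20, those most like XAF1 were linked to MX2 (0.990), IFIT3 (0.986) and SAMHD1 (0.983), and those most like CASP8 to LOC105373402 (0.996), OAS1 (0.980) and HIVEP1 (0.973). Most like TNFSF10 were BBX (0.983), LINC02068 (0.982) and LOC105369623 (0.981), and most like ZBP1 were LOC105372493 (0.990), LOC107986598 (0.987) and RALB (0.983). The LINC02068 peak belongs to the TNFSF10 locus, as the next peak after the longest TNFSF10 peak. CASP4 was most like LOC105378954 (0.992), FAM110C (0.990) and FAM83B (0.976), FAS like MLXIP (0.976), CALM2P2 (0.974) and GCH1 (0.974), and MLKL like SLMO2-ATP5E (0.978), TSPAN17 (0.977) and IFT74-AS1 (0.976).

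Other genes of these pathways were taken from 5 lists, with the 23 peaks left out, and the authors' table names 1 TSS per peak, so a list reaches only genes named there. Of death ligands and receptors, 7 of 8 genes had 21 peaks, of which 1 rose with hIFNb over all clones and 0 fell (median change 0.01), a share not above the 6.55% of all peaks that rose. The rise was linked to TNFRSF11B, a soluble decoy receptor that also binds TRAIL, and was 1.28 ± 0.18 (adjusted p = 0.00196). With clone as a block, 2 rose and 2 fell, shares below the 16.6% and 15.9% of all peaks. Of adaptors and apoptotic caspases, 4 of 9 genes had 6 peaks, of which 3 rose and 0 fell (median 0.47), in either fit. Among the rises were the starts of TRADD, a death-domain adaptor of the TNF receptor (1.05 ± 0.16, adjusted p = 0.00348), and FADD, the adaptor that recruits caspase-8 (0.76 ± 0.14, 0.00877). FADD scored 240 and 284 in untreated and 594 and 548 in hIFNb control clones, and 258 and 230 in untreated and 376 and 270 in hIFNb IRF1-guide clones. Its change was 1.12 in control clones (0.0116; lost without clone 1 untreated, 0.095, clone 1 hIFNb, 0.105, or clone 4 hIFNb, 0.0621) and 0.39 in IRF1-guide clones (0.447). The responses differed by -0.74 ± 0.28 at FADD, which did not pass (adjusted p = 1.0) but passed with clone as a block (0.0239), the single peak of the 5 lists called in that comparison and fit. IRF1-guide less control with hIFNb was -0.84 there (0.0566).

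Of inflammasome and pyroptosis genes, 8 of 15 had 13 peaks, of which 4 rose and 1 fell (median 0.49), and 6 rose and 1 fell with clone as a block. The shares of all peaks were 6.55% rising and 2.58% falling, and 16.6% and 15.9% with the block. The rises were at AIM2, a sensor of cytosolic DNA (2.38 ± 0.24, adjusted p = 0.000286), the pore-forming gasdermin GSDMB (2.32 ± 0.22, 0.000254), and a pair of peaks linked to the gasdermin GSDMD (1.68 ± 0.19, 0.000569; 1.51 ± 0.15, 0.000311). The fall was linked to IL18, named after its values were seen, with a change of -0.52 ± 0.14 (0.0494), and was lost without any 1 of the 8 libraries (0.0707 to 0.161). GSDMB scored 51 and 36 in untreated and 318 and 210 in hIFNb control clones, and 17 and 14 in untreated and 84 and 56 in hIFNb IRF1-guide clones. Its change was 2.56 in control and 2.08 in IRF1-guide clones. The responses differed by -0.48 ± 0.45, which did not pass (limma, unadjusted p = 0.306). Its difference between genotypes with hIFNb was -1.90 (0.0152), the single call of the 5 lists in that comparison, and was lost without control clone 1 hIFNb (0.152), control clone 4 hIFNb (0.0843) or IRF1-guide clone 13 hIFNb (0.122).

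All 6 necroptosis genes had peaks, 17 in all, of which 3 rose and 0 fell (median 0.43), beside 6.55% of all peaks rising. With clone as a block 8 rose and 0 fell, beside 16.6% rising. The peak linked to CYLD, a deubiquitinase of the RIPK1 complex, had low scores of 0 to 28 and rose by 2.34 ± 0.47 (adjusted p = 0.0137; 0.0644 without control clone 1 hIFNb and 0.0514 without IRF1-guide clone 11 hIFNb). The peak linked to ADAR, which edits double-stranded RNA and restrains ZBP1, rose by 1.17 ± 0.15 (0.00127). RIPK1, the kinase upstream of RIPK3, rose by 0.86 ± 0.18 (0.0166), a call lost without control clone 4 untreated (0.0598), IRF1-guide clone 11 untreated (0.0572), control clone 1 hIFNb (0.0545), control clone 4 hIFNb (0.0518) or IRF1-guide clone 11 hIFNb (0.058).

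Of the inhibitor of apoptosis and BCL2 families, 13 of 14 genes had 28 peaks, of which 4 rose and 0 fell (median 0.18), beside 6.55% of all peaks rising. With clone as a block 8 rose and 0 fell, beside 16.6% rising. Rises were at the start of the BH3-only gene BBC3 (1.76 ± 0.32, adjusted p = 0.00748) and at a second peak linked to it (1.12 ± 0.17, 0.00262). The others were at a peak linked to the BH3-only gene PMAIP1 (0.75 ± 0.16, 0.0172) and at the start of BAK1, an effector of apoptosis (0.74 ± 0.13, 0.00701). The PMAIP1 call was lost without control clone 4 untreated (0.0655), IRF1-guide clone 13 untreated (0.0551), control clone 1 hIFNb (0.0694) or IRF1-guide clone 11 hIFNb (0.0711). The start of BBC3 scored 12 and 22 in untreated and 89 and 88 in hIFNb control clones, and 9 and 10 in untreated and 35 and 14 in hIFNb IRF1-guide clones. IRF1-guide less control with hIFNb was -1.95 there (adjusted p = 0.0513). The responses differed by -1.22 ± 0.63 (limma, unadjusted p = 0.0803), and neither difference passed.

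The 6 remaining member peaks had scores between 2 and 77, all-clone changes between -0.28 and 0.91 and adjusted p between 0.177 and 0.989.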

How the data were processed

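H3K27ac ChIP-seq (antibody ab4729) was analysed in 8 libraries of 4 CFPAC1 clones. The deposited values are a score per peak: the authors' normalised counts, rounded to whole numbers. Bowtie2 and GRCh38 (hg38) are named in the submitters' processing notes, with their versions, the peak caller, counting and scaling not given in the sources used here, so no count model was used and counting error is unknown. All 8 libraries entered a group-means model in limma 3.58.1 (R 4.3.3) on log2(score + 1) with a mean-variance trend, and 7 contrasts were each adjusted over 31961 peaks. Only the all-clone hIFNb contrast was checked on simulated data, which had independent libraries. That check does not cover clone effects, nor contrasts within or between genotypes. For IRF1-guide against control over clone means, the 2 libraries of a clone were averaged.

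Same-numbered libraries are 1 clone with and without hIFNb, so clone was tried as a replicate block. Over peaks, departures from the group mean correlated between both treatments of a clone at 0.437 (control) and 0.392 (IRF1-guide). Marker genes are described by peaks over the RefSeq gene, since the authors' table names 1 TSS per peak.

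The members and gene lists were chosen with earlier results of these data known. Given in full were promoter peaks (the peak whose named TSS is the gene, or that holds the gene start or is nearest to it within 2 kb), other member peaks called in any of the 7 contrasts, and each gene's highest-scoring peak. Listed pathway genes are named where called over all clones, up to 4 per list; some items are not reported here. Tried as alternatives were pseudocounts of 0.5 and 5, a mean score of at least 10, quantile and median-of-ratios scaling, no trend, the 4 libraries of a comparison alone, each library left out, and, chosen after seeing the data, a block by the R1 or R2 ending of the column names.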

Additional observations from a re-analysis of the deposited data

How the results depend on the processing

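Of 678 values of 42 results under the alternatives, 589 kept their direction and side of the threshold, 67 no longer passed, 8 newly passed and 14, none of them called, changed sign. With clone as a replicate block, which pairs the treatments within a clone, 13 member peaks were called for hIFNb within control and 11 within IRF1-guide clones. The block by column ending was added after seeing the data and pairs clone 1 with 11 and clone 4 with 13. It called 7 within each genotype for hIFNb, which cannot be weighed because no share of all peaks is given for them. It also called 1 between untreated genotypes (XAF1 promoter, -1.23, adjusted p = 0.0475 by limma) and 3 between hIFNb genotypes (the ZBP1 promoter, CASP4 at 0.0298 and the TNFSF10 peak inside the gene at 0.0335). Without the mean-variance trend 1 was called in IRF1-guide clones and 0 between hIFNb genotypes, where the ZBP1 promoter had an adjusted p of 0.062. The 4 IRF1-guide libraries alone gave 0 calls, and a pseudocount of 5 gave 1 call over clone means. No share of all peaks is given for these settings or for the fit without the trend. Whether the counts moved more than calls over all peaks thus cannot be told. Leaving out each library gave 6 to 10 calls over all clones, 1 to 5 within control and 0 to 2 within IRF1-guide clones, 0 to 1 between hIFNb genotypes, and 0 to 0 between untreated genotypes and for the difference of responses; it was not run over clone means, where a clone would rest on 1 treatment.

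Sign changes were at small differences. Between hIFNb genotypes, the CASP8 peak inside the gene became 0.07 with quantile and 0.01 with median-of-ratios scaling, and -0.09 to 0.09 with a library left out. Other such ranges were -0.68 to 0.15 for the TNFSF10 peak 29.734 kb away, -0.33 to 0.22 for that 26.328 kb away, -0.05 to 0.51 for the upstream CASP8 peak and -0.33 to 0.0 for the MLKL promoter. The longest ZBP1 peak changed with hIFNb by 0.01 with quantile scaling and by -0.41 to 0.35 with a library left out. The cause was not tested. With 2 clones a group and no raw counts, low peaks such as those scoring under 10 have no stated counting error.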
